A study of Rattus norvegicus with 10 samples.

Results

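The genes described here build and run the early secretory pathway of the cell: the machinery that brings a new protein into the endoplasmic reticulum (ER), the coats that carry it to the Golgi and back, and the receptors that select or retrieve cargo. They were chosen by symbol, as every probe set annotated to exactly 1 gene named Sec, Srp, Ssr, Spcs, Tmed or Kdelr with a number, or named as a Cop coat subunit. The rule used no measured value and gave 51 genes with 75 probe sets, out of 9378 genes with a probe set of their own and 15859 probe sets without controls. Genes were split into families by function: 6 of the signal recognition particle, 6 of the translocon, 4 of the translocon-associated protein (TRAP) complex, 5 of the signal peptidase, 8 of the COPII coat, 2 Sec22 SNAREs, 8 of the COPI coat, 9 p24 cargo receptors and 2 KDEL receptors. The remaining gene, Sec14l2, carries the prefix but encodes a lipid-binding protein that is neither coat nor translocon.

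The livers came from CRL:WI (Han) rats (Wistar Han) aged 6 to 8 weeks, with 5 animals per group and a separate Affymetrix array for each animal. The treated group received RG3487, a compound known to act on a neuronal nicotinic acetylcholine receptor, at 180 mg/kg by oral gavage, and the vehicle group received deionized water in the same volume of 5 ml/kg. The sample labels place the sampling at 24 h and the design text at 2 h, so the time is uncertain. The labels name no transgene or allele. Rats were caged in groups of 5, and the sources used here do not say which animals shared a cage, nor their sex or batch.

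Most secreted and many membrane proteins carry a signal that the signal recognition particle binds while the protein is still being made, and the ribosome is then docked on the Sec61 channel in the ER membrane. Signal peptidase cuts cleavable signal peptides off, COPII vesicles bud from the ER towards the Golgi, and COPI vesicles return escaped residents and used receptors. Hepatocytes run this route at high capacity, since the liver makes most plasma proteins.

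Of the 51 genes, 17 were higher and 1 was lower with RG3487 (limma, Benjamini-Hochberg adjusted p under 0.05 over all 11894 probe sets tested). Among all 7727 genes tested, 22.3% were called higher and 7.4% lower (29.7% in either direction). The members' shares were 33.3% higher and 35.3% in either direction. Genes whose mean signal lay within the members' middle range were called higher at 34.3% (481 of 1402), which is close to the members' own share. The median change of the members was 0.15 on the log2 scale, against 0.094 for all genes and 0.13 for the genes of that signal range. All changes are differences of log2(signal + 16), RG3487 minus vehicle, and every error of a change is a standard error. The calls were spread unevenly: 9 of the 17 genes called higher were COPII or COPI subunits, while no p24 or KDEL receptor gene passed (2 of 9 and 0 of 2 had an unadjusted p under 0.05). That contrast between families was not tested.

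**Figure D1:**
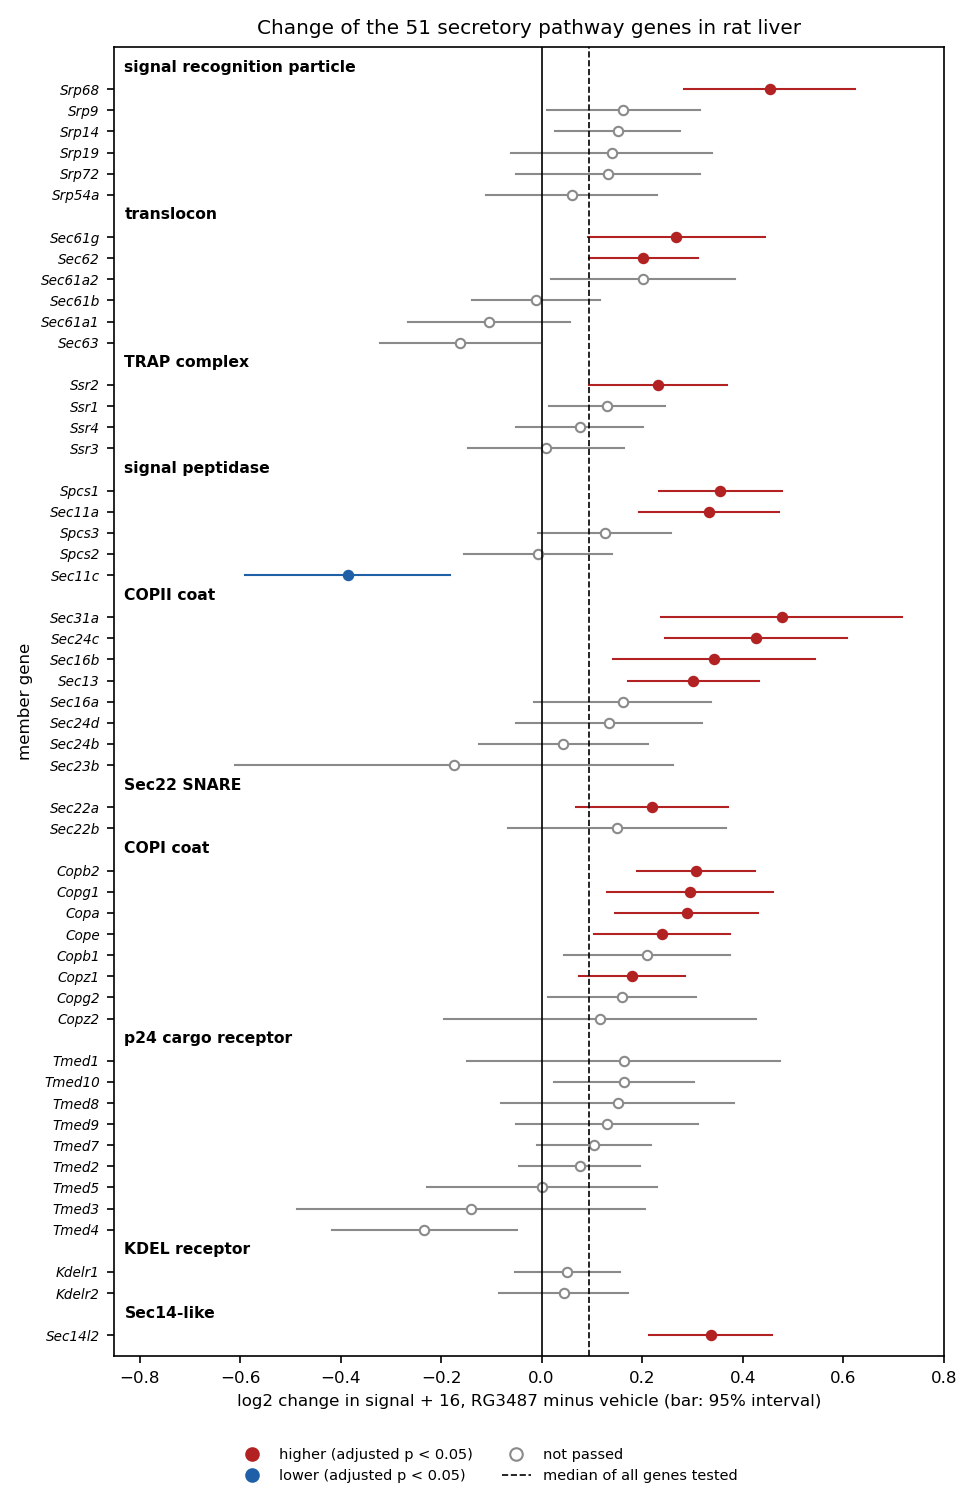
Change of each of the 51 genes, as the log2 difference in signal + 16 (RG3487 minus vehicle) with its 95% interval; filled points passed at an adjusted p under 0.05 and the dashed line is the median of all genes tested (0.094). COPI points all lie above 0, and Sec11c is the only filled point on the left.

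The signals of the groups did not overlap, with RG3487 above, for 17 members (15.5% of all genes tested), and with RG3487 below for 1 member (4.78% of all genes; 20.2% for either side). Scaling moved the split of calls. With each array centred on its median, 11 members were higher and 3 lower, against 12.8% and 11.2% of all genes. Quantile normalization gave 10 and 3. Scaling on the spiked hybridization controls moved the median of all genes to 0.29 and gave 42 and 0. The sign of a small change can therefore turn with the scaling, and losses of a call under another scaling are given beside the genes described below. Of the 18 called genes, 9 kept their call in every alternative in which they were tested: Srp68, Sec11a, Spcs1, Sec13, Sec24c, Sec31a, Copa, Copb2 and Sec14l2.

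In the signal recognition particle, 1 of 6 genes rose, and the family median was 0.15. Srp68, which with Srp72 forms the large protein pair on the particle's RNA core, gave signals of 402, 380, 330, 370 and 323 in vehicle animals 1 to 5 and 526, 495, 440, 493 and 546 in RG3487 animals 1 to 5. Every treated liver was above every vehicle liver. The mean went from 361 ± 33.6 to 500 ± 40.2 (SD, n = 5 per group), a log2 change of 0.45 ± 0.0783 (1.37-fold; limma adjusted p = 0.00163). Srp72 has 3 probe sets. The brightest did not pass (0.13, adjusted p = 0.264), whereas the dimmest rose by 0.32 ± 0.0746 (adjusted p = 0.00854), with vehicle signals of 119, 143, 131, 110 and 120 and treated signals of 161, 147, 163, 158 and 165.

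Srp9 and Srp14, the dimer that slows elongation while the ribosome is brought to the membrane, did not pass. Srp14 was 1114 ± 61.8 with vehicle and 1238 ± 65.5 with RG3487, with no overlap between groups (log2 change 0.15 ± 0.0572, adjusted p = 0.0663). Srp9 changed by 0.16 ± 0.0698 (adjusted p = 0.1). Srp54a, the subunit that binds the signal peptide, and Srp19, which helps assemble the particle, gave 0.06 (adjusted p = 0.598) and 0.14 (adjusted p = 0.279). The other tested probe set of Srp54a gave 0.21 (adjusted p = 0.115). All 6 estimates were above 0, and 3 of 6 had an unadjusted p under 0.05 (43% of all genes tested).

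The translocon genes did not move together. Sec62 and Sec61g rose, and the other 4 genes did not pass, with estimates between -0.16 and 0.20. Sec62, a partner of the channel used by proteins imported after their synthesis, read 1003, 1018, 1090, 1026 and 972 with vehicle and 1176, 1143, 1151, 1243 and 1175 with RG3487. The treated livers all lay above the vehicle livers, with a change of 0.20 ± 0.0499 (1.15-fold, adjusted p = 0.011). The call was lost with arrays centred on their median (adjusted p = 0.0894; range over the alternatives 0.000248 to 0.0894). The other probe set of Sec62 gave 0.11, also without overlap, and did not pass (adjusted p = 0.102).

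Sec61g encodes the small gamma subunit of the channel. Its signals were 1094, 1040, 1332, 1307 and 1141 with vehicle and 1351, 1390, 1529, 1288 and 1563 with RG3487, and 4 of 5 treated livers exceeded the highest vehicle liver. The change was 0.27 ± 0.0812 (adjusted p = 0.0285). With 1 array fewer the change stayed between 0.22 and 0.31, but the call was lost without vehicle animal 1 (adjusted p = 0.0633), 2 (0.0659) or 5 (0.0565) and without RG3487 animal 3 (0.0549) or 5 (0.0708), and also after centring (0.145) or quantile normalization (0.0503). Over all alternatives its adjusted p ran from 0.000729 to 0.145.

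The other channel subunits did not pass on their brightest probe sets, and their estimates had both signs. Sec61b was 1670 ± 120 with vehicle and 1656 ± 74 with RG3487, a change of -0.01 (95% interval -0.14 to 0.12, adjusted p = 0.913). Sec61a2, a pore-forming subunit, gave 0.20 (adjusted p = 0.0934). The brighter probe set of its paralog Sec61a1 changed by -0.11 ± 0.0742 (adjusted p = 0.309). Its other probe set fell from 381 ± 13.8 to 331 ± 24.1, a change of -0.19 ± 0.0628 (adjusted p = 0.0367), without overlap. That fall was absent on the hybridization control scaling (0.0007, adjusted p = 0.993), and its call was lost without vehicle animal 1, 2 or 4 or RG3487 animal 2, 4 or 5 (adjusted p 0.0597 to 0.0857). Sec63, the J-domain protein that recruits the ER chaperone BiP to the channel, gave -0.16 on its brightest probe set (adjusted p = 0.115) and -0.16 to 0.043 over its 4. It was called lower after centring (adjusted p = 0.0365) and after quantile normalization (0.0265).

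The TRAP complex, which sits beside the channel and helps some signal peptides to engage, had 1 higher gene of 4. Ssr2, its beta subunit, read 368, 389, 412, 369 and 336 with vehicle and 456, 452, 447, 422 and 433 with RG3487, again with no overlap. The mean went from 375 ± 28.1 to 442 ± 14.2, a change of 0.23 ± 0.0629 (adjusted p = 0.0173). Centring (adjusted p = 0.0834) and quantile normalization (0.142) ended this call (range 0.000416 to 0.142). Ssr1 changed by 0.13 (adjusted p = 0.0854), Ssr4 by 0.076 (0.355) and Ssr3 by 0.0092 (0.938). The other probe set of Ssr1 had the opposite sign, at -0.059 (adjusted p = 0.723). The 3 probe sets of Ssr3 ranged from -0.19 to 0.0092.

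Signal peptidase had genes called in both directions: 2 of 5 higher and 1 lower, and its catalytic subunits moved apart. Sec11a and Sec11c are paralogs that each supply the active site of a separate form of the enzyme. Sec11a rose: its signals were 596, 542, 520, 610 and 538 with vehicle and 721, 699, 649, 751 and 733 with RG3487. Sec11c fell: its signals were 490, 523, 460, 506 and 502 with vehicle and 314, 329, 459, 403 and 391 with RG3487. Neither gene's groups overlapped, although for Sec11c the gap was between 460 and 459. The changes were 0.33 ± 0.0639 for Sec11a (1.26-fold, adjusted p = 0.00282) and -0.39 ± 0.0938 for Sec11c (1.31-fold lower, adjusted p = 0.0102). On the hybridization control scaling the change of Sec11c was -0.19, which missed the threshold (adjusted p = 0.0901; range 0.0024 to 0.0901).

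The difference between these paralogs within an array does not depend on a single factor that scales the array, apart from the added 16. Quantile normalization can change it. This difference was looked at after the values of both genes were seen. Set against the vehicle mean, log2 Sec11a minus log2 Sec11c was 0.10, -0.12, 0.0003, 0.091 and -0.074 in the vehicle livers and 0.99, 0.88, 0.31, 0.70 and 0.71 in the RG3487 livers. The highest vehicle liver lay below the lowest treated liver. This separation follows from the lack of overlap in both genes, so it adds no support of its own. Spcs1, a small accessory subunit, rose from 940, 953, 1010, 1071 and 966 to 1243, 1218, 1205, 1361 and 1316, a change of 0.36 ± 0.0565 (1.28-fold, adjusted p = 0.00102). Spcs2 gave -0.008 (95% interval -0.16 to 0.14) and Spcs3 gave 0.13 (adjusted p = 0.141). Among the 5 subunits, the accessory gene Spcs1 and the catalytic gene Sec11a were thus higher, Sec11c lower and Spcs2 and Spcs3 not called.

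**Figure D2:**
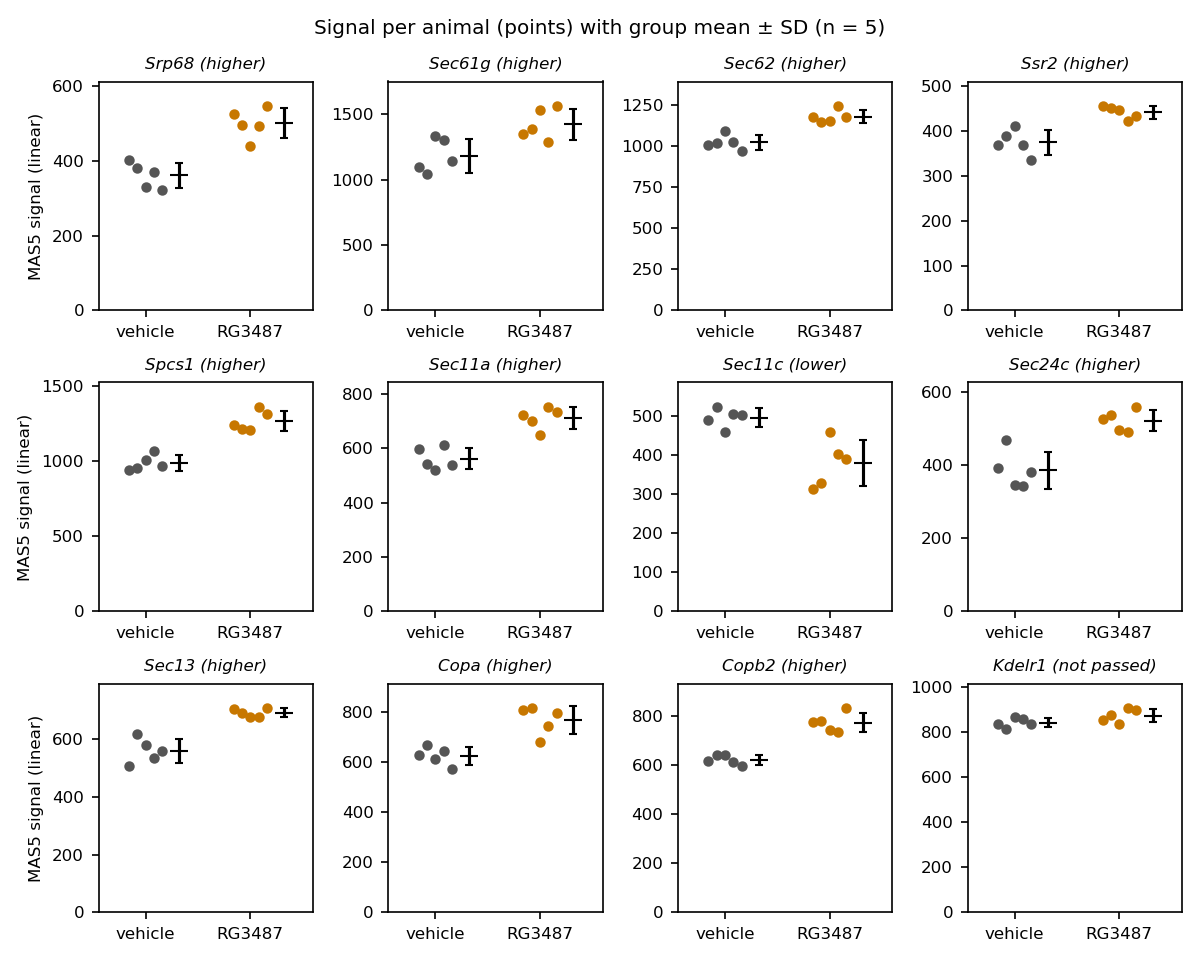
MAS5 signal (linear scale from 0) of each animal for 12 member genes, with the group mean ± SD (n = 5 per group); the word after the symbol is the limma call. Srp68, Spcs1 and Copb2 show treated livers wholly above vehicle livers, Sec11c shows them below, and the Kdelr1 groups overlap.

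COPII, the coat that shapes vesicles leaving the ER, had 4 of 8 genes higher and 0 lower by limma (4 with an unadjusted p under 0.05), with a family median of 0.23. Of all genes tested, 22.3% were called higher and 43% had an unadjusted p under 0.05. Among genes in the members' signal range, 34.3% were called higher. Both cage genes measured here rose. Sec31a, the outer cage rod, read 51, 53, 67, 38 and 46 with vehicle and 75, 84, 68, 84 and 72 with RG3487. Sec13, its partner in the cage, rose from 559 ± 42.2 to 691 ± 14.6, with signals of 506 to 616 in vehicle livers and 677 to 707 in treated ones. Groups were separate for both genes, with changes of 0.48 ± 0.11 (1.39-fold, adjusted p = 0.00786) and 0.30 ± 0.0601 (1.23-fold, adjusted p = 0.00344). Sec31a was dim, with no signal above 84.

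The inner layer and the exit-site scaffold were mixed. Sec24c, 1 of the adaptors that pick cargo, read 391, 467, 344, 343 and 381 with vehicle and 526, 535, 495, 490 and 558 with RG3487 and rose by 0.43 ± 0.0832 (1.345-fold, adjusted p = 0.00309). Its other probe set gave 0.18 and did not pass (adjusted p = 0.371). Sec24d and Sec24b, further adaptors, gave 0.13 (adjusted p = 0.262) and 0.043 (0.71). The other probe set of Sec24b gave -0.061 (adjusted p = 0.758). Sec23b, part of the GTPase-activating layer, ranged from 392 to 701 with vehicle and from 345 to 723 with RG3487, so its change of -0.17 ± 0.2 was smaller than the spread in either group (adjusted p = 0.545).

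Sec16 proteins mark the sites on the ER where COPII assembles. Sec16b read 446, 468, 393, 348 and 434 with vehicle and 559, 606, 457, 503 and 545 with RG3487, with 4 of 5 treated livers above all vehicle livers. It rose by 0.34 ± 0.0926 (adjusted p = 0.0167), and quantile normalization ended the call (0.0578; range 0.000532 to 0.0578). Sec16a did not pass on its brighter probe set (0.16, adjusted p = 0.155). Its dimmer probe set rose from 153 ± 16.3 to 206 ± 19.9, by 0.40 ± 0.086 (adjusted p = 0.00538), without overlap.

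Sec22 proteins are SNAREs of vesicles moving between ER and Golgi. Sec22a read 123, 120, 118, 112 and 128 with vehicle and 156, 133, 152, 131 and 142 with RG3487, and rose by 0.22 ± 0.0696 (adjusted p = 0.0342). No treated liver fell below the highest vehicle liver, yet the call was fragile. It was lost after centring (0.177) and quantile normalization (0.232) and without any of 7 single animals, namely vehicle animals 1 to 4 and RG3487 animals 1, 3 and 5, with adjusted p between 0.051 and 0.08. Sec22b gave 0.15 and 0.31 on its probe sets (adjusted p = 0.28 and 0.125).

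COPI carries cargo back from the Golgi to the ER, and all 8 estimates in this coat were above 0 (66.2% of all genes tested were). Of the 8 genes, 5 were higher and 0 lower (7 with an unadjusted p under 0.05), over a range of changes from 0.12 to 0.31. The shares over all genes tested were 22.3% higher and 43% with an unadjusted p under 0.05. In the members' signal range, 34.3% were higher. Copb2, Copa and Cope encode the outer subcomplex (the beta-prime, alpha and epsilon subunits), and all were called higher. Copb2 read 617, 643, 641, 614 and 595 with vehicle and 778, 779, 744, 735 and 833 with RG3487. Copa read 629, 668, 612, 645 and 573 with vehicle and 806, 815, 681, 744 and 795 with RG3487. For both, the lowest treated liver was above the highest vehicle liver. Copb2 rose by 0.31 ± 0.0537 (1.24-fold, adjusted p = 0.00175) and Copa by 0.29 ± 0.0655 (1.22-fold, adjusted p = 0.00727). Cope rose by 0.24 ± 0.0624 (adjusted p = 0.0139), a call lost after centring (0.0663) and quantile normalization (0.148; range 0.000437 to 0.148).

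The inner, adaptor-like subcomplex holds the beta, gamma, delta and zeta subunits. Copg1, a gamma subunit, read 201, 215, 180, 195 and 170 with vehicle and 220, 251, 235, 229 and 261 with RG3487, without overlap, and rose by 0.30 ± 0.0758 (1.23-fold, adjusted p = 0.0132). Its other probe set gave 0.0455 (adjusted p = 0.777), with overlapping groups. Quantile normalization (0.0657) and averaging the probe sets of Copg1 (0.0834) ended that call (range 0.000319 to 0.0834). Copz1, a zeta subunit, rose from 651 ± 16.2 to 739 ± 22.2, by 0.18 ± 0.0488 (adjusted p = 0.0173), and was not called after centring (0.163) or quantile normalization (0.21; range 0.000165 to 0.21). Its other probe set gave 0.17 and did not pass (adjusted p = 0.0729). The paralogs were not called: Copg2 gave 0.16 (adjusted p = 0.0977) and Copz2 gave 0.12 (0.572).

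Copb1, the beta subunit, narrowly missed the threshold. Its signals were 758, 757, 745, 733 and 643 with vehicle and 910, 900, 712, 831 and 872 with RG3487, and RG3487 animal 3 alone lay among the vehicle values. The change was 0.21 ± 0.0757 (adjusted p = 0.0568). Without RG3487 animal 3 it was 0.27 and passed (adjusted p = 0.00959; range over the alternatives 0.00145 to 0.185). Over the omission of each array in turn, the change of Copb1 ran from 0.17 to 0.27. Vehicle animal 5 was far below the other vehicle livers (643, others 733 to 758). The delta subunit Arcn1, which the symbol rule leaves out, gave 0.17 ± 0.0777 (adjusted p = 0.12).

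Per animal, the median over the COPI genes (relative to each gene's vehicle mean) was -0.09 to 0.053 in vehicle livers and 0.21 to 0.31 in treated livers. For COPII it was -0.077 to 0.17 and 0.21 to 0.30. In each coat the 5 treated livers were above the 5 vehicle livers. The same held for the median over all 51 members, which include both coats (-0.05 to 0.042 with vehicle and 0.11 to 0.17 with RG3487). That median therefore cannot show whether the separation extends beyond the coats. In every other family of more than 1 gene, the groups overlapped. For p24, as an example, the median was -0.088 to 0.085 with vehicle and 0.0505 to 0.14 with RG3487. Sec14l2, a single gene, was separate (-0.086 to 0.068 and 0.24 to 0.39). The difference between the coats and the other families was not tested. The COPI median (0.22) stood 0.13 above the median of all genes, and the COPII median (0.23) 0.14 above it. The median of genes in the members' signal range was higher than that of all genes, at 0.13. Arrays centred on their median or scaled on the hybridization controls gave the same distances to all genes by construction. Quantile normalization gave distances of 0.12 and 0.13.

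**Figure D3:**
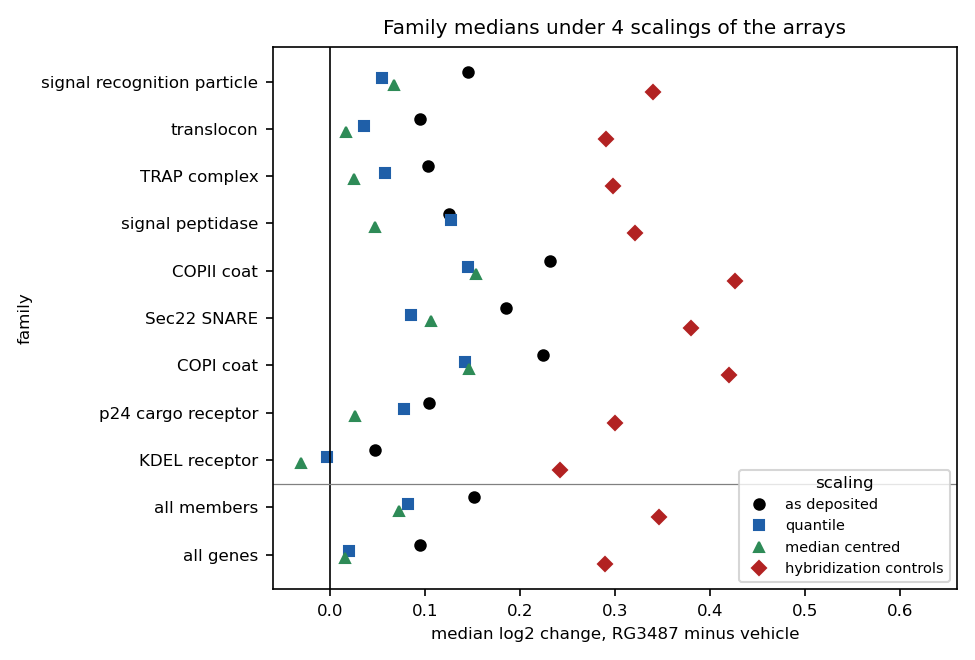
Median log2 change (RG3487 minus vehicle) of each family, of all members and of all genes tested, under 4 scalings of the arrays shown as 4 marker shapes. As deposited, COPII (0.23) and COPI (0.22) have the highest family medians and the KDEL receptors the lowest (0.047), and the hybridization control scaling moves all of them to the right.

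Because all COPI estimates lay above 0, the members' promoters were read from RefSeq (build GRCr8), as the 250 bases before and 50 after the annotated start, 5′ to 3′ on the gene's strand. Such a window was found for 46 of the 51 genes, including all 8 COPI genes. Sec24c, Sec24d, Sec61a1, Sec61a2 and Kdelr2 were not matched. The unfolded protein response element TGACGTGG, the element bound by XBP1 and ATF6, was present on either strand in 4 of 46 windows, against 0.637% of all 27457 windows. Of these 4, 3 belong to COPI: Copa (chr13:87078618-87078917, + strand), Copb1 (chr1:177872791-177873090, - strand) and Copb2 (chr8:108040437-108040736, + strand). The match is at bases 281 to 288 in Copa, 245 to 252 in Copb1 and 241 to 248 in Copb2. It thus lies after the annotated start in Copa, spans the start in Copb1 and lies before it in Copb2. These windows are shown because the 3 subunits share this element, in capitals, which reads as CCACGTCA where it lies on the opposite strand.
Copa: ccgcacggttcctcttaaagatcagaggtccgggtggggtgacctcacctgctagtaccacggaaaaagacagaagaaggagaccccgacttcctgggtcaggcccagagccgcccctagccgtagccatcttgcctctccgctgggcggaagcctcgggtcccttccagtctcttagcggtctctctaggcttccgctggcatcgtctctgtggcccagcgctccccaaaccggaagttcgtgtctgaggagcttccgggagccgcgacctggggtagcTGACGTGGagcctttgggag
Copb1: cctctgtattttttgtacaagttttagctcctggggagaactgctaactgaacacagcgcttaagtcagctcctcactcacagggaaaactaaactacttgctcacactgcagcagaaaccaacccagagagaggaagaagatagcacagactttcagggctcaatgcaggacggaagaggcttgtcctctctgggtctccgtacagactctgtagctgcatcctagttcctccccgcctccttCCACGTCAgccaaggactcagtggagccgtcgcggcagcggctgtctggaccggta
Copb2: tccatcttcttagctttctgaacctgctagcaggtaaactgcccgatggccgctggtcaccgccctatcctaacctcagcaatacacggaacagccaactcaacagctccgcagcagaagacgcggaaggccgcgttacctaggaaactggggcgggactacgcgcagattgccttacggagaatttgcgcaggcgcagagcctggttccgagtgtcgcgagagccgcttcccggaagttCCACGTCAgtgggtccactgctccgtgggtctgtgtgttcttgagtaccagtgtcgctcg

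The fourth match was in Srp19, which did not pass. Copa and Copb2 were called higher, and Copb1 narrowly missed the threshold (limma adjusted p = 0.0568). Genes without TGACGTGG in their windows were called higher too, among them Srp68, Spcs1 and Sec11a. A link between this element and the changes was not tested. The longer ER stress elements, which are CCAAT and CCACG with 9 bases of any kind between them and ATTGG and CCACG with 1 base between them, and whose CCACG part overlaps the complement of TGACGTGG, were in 0 of 46 windows (0.0765% and 0.0546% of all). The cAMP element TGACGTCA, which shares TGACGT with it, was in 1 (Cope; 1.91% of all). The antioxidant element core TGACNNNGC was in 7 (12.2% of all), overlapping the TGACGTGG match in Srp19. These are matches of letters, and no binding was measured.

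The p24 proteins, encoded by Tmed genes, are cargo receptors that cycle between ER and Golgi, and 0 of 9 were called by limma (2 of 9 had an unadjusted p under 0.05). Estimates ran from -0.23 to 0.16. Tmed4 had the smallest p, with signals of 251, 213, 220, 240 and 228 in vehicle livers and 180, 234, 189, 199 and 170 in treated livers. Of the treated livers, 4 lay below every vehicle liver and animal 2 lay among them. Its change was -0.23 ± 0.0844 (adjusted p = 0.0572). It was called lower after centring (0.0223), after quantile normalization (0.017), under a stricter filter that dropped the dimmest 50% (0.0459) and without RG3487 animal 2 (0.0164; range 0.0164 to 0.726). The other probe set of Tmed4 gave -0.10 with overlapping groups and did not pass (adjusted p = 0.324).

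The abundant p24 partners did not follow Tmed4. Tmed10 was 812 ± 61.6 with vehicle and 910 ± 44.8 with RG3487, without overlap (change 0.16 ± 0.0642, adjusted p = 0.0751). Tmed2 gave 0.075 (adjusted p = 0.33) and Tmed9 gave 0.13 (0.263). Tmed7 gave 0.10 (adjusted p = 0.151), while a dimmer probe set of it was called higher (0.27, adjusted p = 0.0494). That call was lost after centring (0.152) and quantile normalization (0.161), and without any single animal other than vehicle animal 2 or RG3487 animal 1 (0.0581 to 0.114). Tmed1, Tmed3, Tmed5 and Tmed8 had estimates from -0.14 to 0.16 and did not pass. Averaging probe sets made Tmed7 the single p24 gene called higher.

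KDEL receptors recognise the tail of ER residents in the Golgi and send them back in COPI vesicles. Kdelr1 read 835, 812, 867, 857 and 836 with vehicle and 853, 873, 835, 906 and 896 with RG3487, and the groups overlapped. Its change was 0.051 ± 0.0484 (95% interval -0.054 to 0.16, adjusted p = 0.455). Kdelr2 was 799 ± 39.4 with vehicle and 825 ± 50.5 with RG3487, a change of 0.044 (95% interval -0.085 to 0.17, adjusted p = 0.614). Neither had an unadjusted p under 0.05, and both were called higher only on the hybridization control scaling. The difference between these receptors and the COPI genes was not tested.

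Sec14l2, which binds tocopherol and other lipids, read 408, 419, 427, 382 and 398 with vehicle and 484, 535, 526, 507 and 537 with RG3487. It rose by 0.34 ± 0.0563 (1.26-fold, adjusted p = 0.00139), and its other probe set also passed (0.20, adjusted p = 0.049). The call of that other probe set was lost after centring (0.18), after quantile normalization (0.307) and without any 1 of the 10 arrays (0.0504 to 0.113). Of the 18 members with at least 2 tested probe sets, Sec14l2 was the 1 in which every probe set was called. In 8, a called probe set stood beside another that was not, in 9 none was called, and in 4 the probe sets differed in sign. Over all 73 member probe sets tested, 21 were called higher and 2 lower (20.5% and 7.16% of all probe sets, and 27.7% in either direction).

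Neighbouring machinery was read from gene lists, by counts of genes called. Of 22 partners of ER entry, 5 were higher and 1 lower, close to the background. Bcap29, an ER membrane protein that sorts other membrane proteins, rose by 0.36 ± 0.0855 (adjusted p = 0.00882), and Emc4 and Emc7, subunits of a membrane protein insertase, rose by 0.23 (0.00581) and 0.22 (0.00997). Centring ended the calls of Emc4 (0.0509) and Emc7 (0.0901), and quantile normalization that of Emc4 (0.0774). Sil1, the exchange factor of BiP, fell from 118 ± 12.7 to 75.8 ± 11.3, by 0.55 on the log2 scale (adjusted p = 0.00231). After centring, 1 of the 22 was higher and 3 were lower, and on the hybridization control scaling 16 and 1.

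The oligosaccharyltransferase adds glycans beside the channel, and 2 of its 11 tested genes rose and 2 fell. Rpn2, a subunit of it, had signals of 2100, 1955, 1933, 2169 and 2107 with vehicle and 1359, 1267, 1427, 1262 and 1279 with RG3487. Every treated liver was below every vehicle liver, and the fall of 0.63 was larger than any change among the members (adjusted p = 2.92e-05). Stt3b, a catalytic subunit, fell by 0.19 (adjusted p = 0.0327), and Dad1 and Tmem258 rose by 0.19 (0.0273) and 0.17 (0.0435). The calls of these 3 genes were lost under other settings. Centring and quantile normalization ended those of Dad1 (0.187 and 0.0873) and Tmem258 (0.33 and 0.465), and on the hybridization control scaling Stt3b changed by 0.0059 (0.936). Dad1 was also lost without vehicle animal 1, 3 or 5 or RG3487 animal 2 or 5 (0.0504 to 0.0596). Stt3b was lost without any single animal but vehicle 3 or RG3487 2 (0.052 to 0.0761), and Tmem258 without any but vehicle 4 or RG3487 1 (0.0546 to 0.0927). Centring left 0 higher and 3 lower by limma, and the hybridization control scaling gave 6 higher with Rpn2 as the single lower gene.

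Of 56 partners of ER to Golgi transport, 14 were higher and 0 lower (limma; 26 with an unadjusted p under 0.05), a share of 25% near the background of 22.3%. The 4 of smallest p were Rab1b, a GTPase of vesicle tethering (167 ± 9.52 to 242 ± 12.8; 0.49 ± 0.0642, adjusted p = 0.000346), Arfgap2, which acts on the COPI GTPase (0.44 ± 0.0598, 0.000439), and the cargo receptors Cnih1 (0.30 ± 0.0505, 0.00155) and Lman2l (0.45 ± 0.077, 0.00162). Of 32 post-Golgi coat and tether genes, 12 were higher and 0 lower (17 with an unadjusted p under 0.05). Vps26b of retromer gave 0.45 (adjusted p = 0.000617), and the clathrin adaptor genes Ap2a2, Ap1s1 and Ap1g1 gave 0.38 (0.00101), 0.40 (0.00171) and 0.57 (0.00239). After centring, 7 of 56 and 8 of 32 were higher, and 1 of 56 was lower.

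Among regulators of the unfolded protein response, 0 of 10 tested were higher by limma (3 of 10 had an unadjusted p under 0.05) and 1 was lower. The lower gene, Ddit3, encodes the stress-induced factor CHOP and went from 71 ± 6.44 to 50 ± 3.61 (change -0.40 ± 0.0792, adjusted p = 0.00351). Creb3 gave 0.27 (adjusted p = 0.0737), Mbtps1 0.18 (0.0974) and Creb3l3 -0.11 (0.183). On the hybridization control scaling 2 were higher and 1 lower. Hspa5, which encodes BiP, was 4245 ± 338 with vehicle and 3640 ± 446 with RG3487 (change -0.23 ± 0.0829, adjusted p = 0.0603).

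The plasma proteins that hepatocytes send through this route were not higher. Of 18 secreted cargo genes tested, 10 were lower and 0 higher (14 with an unadjusted p under 0.05), all 18 estimates were below 0, and the median was -0.16. F2, prothrombin, fell from 7320 ± 477 to 5495 ± 171, by 0.41 (adjusted p = 0.000212). Plg, C3 and Ambp fell by 0.33 (0.000579), 0.29 (0.000826) and 0.27 (0.00112). These very bright genes depended on the scaling: quantile normalization gave 4 lower with a median of -0.0007, and the hybridization control scaling gave 2 lower and 2 higher with a median of 0.035, with C3 (0.0945) and Ambp (0.175) no longer called. The brightest signal on each array was 10418 to 11392 with vehicle and 9113 to 10252 with RG3487, so every treated array lay below every vehicle array, and the part of this in the fall of bright genes was not tested.

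**Figure D4:**
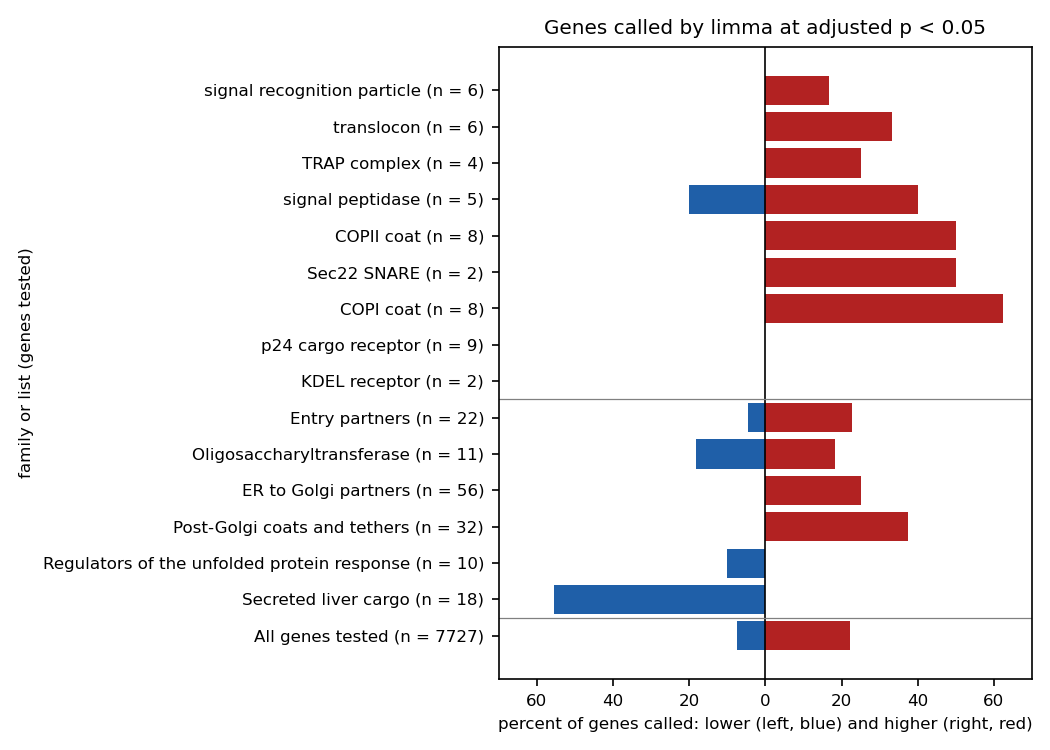
Percent of genes called lower (left) and higher (right) by limma at an adjusted p under 0.05 in each family, in each neighbouring list and among all genes tested, with the number tested in brackets. The COPI and COPII bars reach 62.5% and 50% on the right, the bar of secreted cargo reaches 55.6% on the left, and all genes show 22.3% and 7.4%.

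The tissue label was checked on marker genes. The 7 hepatocyte markers with a probe set summed to 50018 to 53962 with vehicle and 41890 to 50275 with RG3487, with 4 of 7 lower. Of these 7, 5 are also in the secreted cargo list, and the count was 0 lower under quantile normalization, and 1 higher and 0 lower on the hybridization control scaling. Macrophage markers (5 of 8 with a probe set) summed to 2147 to 2791 and 1800 to 2367, with 1 lower. Endothelial markers (5 of 8) summed to 2300 to 2569 and 1949 to 2277, so every treated liver was below every vehicle liver, with 1 lower. Of the macrophage and endothelial markers, 2 each were lower after centring and 0 each on the hybridization control scaling. Their median changes were -0.18 and -0.13 as deposited, and 0.016 and 0.068 on the hybridization control scaling. Stellate markers summed to 1425 to 1856 and 1549 to 1743 (1 higher and 1 lower of 5 tested), bile duct markers to 122 to 204 and 154 to 294, and leukocyte markers to 1350 to 1995 and 1433 to 2436 (1 higher of 3). The higher stellate gene, Col1a1, was not called after centring (limma adjusted p = 0.0858) or quantile normalization (0.0568). No marker with a probe set was listed at 0 in all animals. Fewer cells of a type and less RNA per cell cannot be told apart in these samples, and the part of these shifts in the member results was not tested. Median array signals were 85 to 93 with vehicle and 92 to 96 with RG3487 at nearly equal means (330 to 332). The 3′ to 5′ difference of Gapdh was 0.19 to 0.31 with vehicle and 0.16 to 0.23 with RG3487 (exact two-sided permutation p = 0.0556). That of Actb was larger, at 1.55 to 1.82 with vehicle and 1.44 to 1.80 with RG3487 (exact two-sided permutation p = 0.127).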

How the data were processed

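Liver RNA (1 ug per animal, biotin labelled) was hybridised to Affymetrix rat arrays. Per the submitters' processing notes the values were made with MAS5, and the sources used here state neither its version nor its scaling target. The deposited values are intensities on a linear scale, in whole numbers, and all array means lay between 330 and 332. Arrays have no read depth, so precision is set by having 5 arrays in each group. Probe sets were named from the platform annotation, and only those with 1 gene were used. Each array belongs to a separate animal, per the labels.

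Values were analysed as log2(signal + 16), which makes changes of dim genes smaller. Controls and the dimmest 25% of probe sets, by mean log2 value, were dropped (11894 remained). The groups were compared with limma 3.58.1 in R 4.3.3 (lmFit, eBayes with trend, two-sided), with Benjamini-Hochberg adjustment over all probe sets. A check of the procedure on simulated data changed a small share of probe sets, in both directions and without a shift between arrays. It therefore does not cover a shift of most genes between the groups. A gene was represented by its brightest tested probe set, giving 7727 genes. For each family, animal values were printed for up to 3 called genes of largest change in each direction, or for the gene of smallest p where none was called. In each neighbouring list, up to 4 genes of smallest p were named, and any other gene named with a value was chosen after its values were seen, as were the animal values of Copb1, of Rpn2 and of the dimmest Srp72 probe set. Each result was recomputed under 21 alternatives: pseudocounts of 1 and 64, 3 other scalings, other filters, other variance settings, a replicate block, averaged probe sets and the omission of each array.

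The members, the gene lists and the promoter motifs were chosen with earlier results of these data known, so no p-value was adjusted over a list and no set test was run.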

Additional observations from a re-analysis of the deposited data

Results flagged for a closer look

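Among the member genes and families, 122 groups of 5 animals were checked for a single value far from the other 4, by the gap to the nearest value over the whole range (Dixon's critical value 0.71), and 7 were found. Chance marks about 1 in 20 such groups, so 7 is about the number that chance gives. In the vehicle group, Srp19 was high in animal 1 (377, others 306 to 325) and Sec61a2 was high in animal 4 (138, others 114 to 120). Vehicle animal 5 was low for Copb1 (643, others 733 to 758) and for Tmed10 (707, others 814 to 860). In the RG3487 group, Srp72 was high in animal 5 (502, others 417 to 427). The median over the signal recognition particle genes was also high in that animal (0.33, others 0.087 to 0.16), and the median over the COPI genes was high in RG3487 animal 2 (0.31, others 0.21 to 0.23).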

How the results depend on the processing

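Over 1065 pairs of a member gene and an alternative, 963 kept direction and side of the threshold, 29 lost a call, 35 gained one in the same direction and 38 turned sign (2 of which, Sec61b and Spcs2 on the hybridization control scaling, were then called), and no gene called in the analysis as deposited turned sign. Scaling had the widest effect, and the cause was not tested. With arrays centred on their median, 11 members were higher and 3 lower (median 0.073). The translocon then had 0 higher and 1 lower (median 0.017), TRAP 0 higher (0.025), Sec22 0 higher, COPI 3 higher (0.15), p24 1 lower (0.027) and the KDEL receptors a median of -0.031. The signs of Srp54a (-0.018), Ssr3 (-0.069), Ssr4 (-0.0025), Sec24b (-0.035), Tmed2 (-0.0028), Tmed5 (-0.077), Kdelr1 (-0.027) and Kdelr2 (-0.035) turned. Quantile normalization gave 10 higher and 3 lower (median 0.083), with the translocon at 1 higher and 1 lower, TRAP and Sec22 at 0 higher, COPI at 2 higher (0.14) and p24 at 1 lower, and turned Srp54a (-0.039), Ssr3 (-0.034), Sec24b (-0.028), Tmed5 (-0.10) and Kdelr2 (-0.0088). Hybridization control scaling gave 42 higher and 0 lower (median 0.35). Under it the family medians and genes higher were 0.34 and 6 for the signal recognition particle, 0.29 and 4 for the translocon, 0.30 and 4 for TRAP, 0.32 and 4 (0 lower) for signal peptidase, 0.43 and 7 for COPII, 0.38 and 2 for Sec22, 0.42 and 7 for COPI, 0.30 and 5 for p24, and 0.24 and 2 for the KDEL receptors. It turned Sec61a1 (0.0899), Sec61b (0.18), Sec63 (0.033), Spcs2 (0.19), Sec23b (0.021) and Tmed3 (0.055). Leaving out the dimmest 50% gave 2 members lower, 1 of them in p24. Averaging probe sets gave 2 higher in the signal recognition particle and 1 in p24, and turned Ssr3 (-0.092) and Sec24b (-0.0087). A pseudocount of 64 turned Tmed5 (-0.0005). Omitting each array in turn gave 15 to 18 members higher and 1 to 2 lower, 1 to 3 translocon genes and 0 to 1 Sec22 genes higher, and 0 to 1 p24 genes lower, with Sec61b from -0.042 to 0.018, Ssr3 from -0.0401 to 0.046, Spcs2 from -0.045 to 0.0395 and Tmed5 from -0.066 to 0.075. Same-numbered animals share only a number (correlations of their deviations -0.037 to 0.17, and only animal 2 correlated best with its own number). With the replicate number as a block, 15 members were higher and 1 lower, and Sec22a (adjusted p = 0.0597) and Copz1 (0.0534) did not pass, so Sec22 had 0 higher. The p-values measure the spread between these 10 animals. The largest standard errors among the members were those of Sec23b (0.2), Tmed3 (0.159) and Tmed1 (0.143).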
